A study of Mus musculus with 6 samples.

Results

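Alpha-1 antitrypsin and other secreted liver proteins were followed through a mouse brain microarray study, in which their transcripts were chosen by their lower values after a polyamidoamine (PAMAM) dendrimer dose in the olfactory bulb. The genes are the 5 alpha-1 antitrypsin copies Serpina1a to Serpina1e, Alb, Ambp, Ahsg, Apoa1 and Apoa2, and their probes are those that carry these names in the scanner files. There are 13 such probes among 55681 for 34797 gene names in all, and they cover 9 of the 10 genes, since no probe is named Serpina1b. Because the olfactory bulb difference chose the genes, its values are given as a description and support nothing by themselves.

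The mice were BALB/c males, a common inbred strain, 8 weeks old when they received 1 dose through the nose, either saline or PAMAM dendrimers, branched polymers studied as carriers for drugs and nucleic acids. The dendrimer dose was 0.15 mg/kg body weight, and the olfactory bulb, hippocampus and cortex were taken 24 h later. All 6 groups share strain, sex, age and time, and each is represented by 1 Agilent 1-colour array that carried RNA pooled from 6 independent experiments. The pooling hides the spread between animals, nothing in the labels ties the 3 regions to the same mice, and with 1 array per group no difference has a replicate check and no p-value can be given. In a tissue extract, fewer cells of a type and less RNA per cell cannot be told apart.

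Alpha-1 antitrypsin is a serpin, a suicide inhibitor that offers a bait loop to a protease such as neutrophil elastase and traps the enzyme when the loop is cut. It is made mainly by liver cells and secreted into the blood. Mice, unlike humans, carry several tandem copies of the gene, which differ mostly in the reactive-centre loop that decides which protease is caught. Albumin, the fetuin Ahsg, the Ambp precursor of alpha-1-microglobulin and bikunin, and the high-density lipoprotein apolipoproteins Apoa1 and Apoa2 are further products of hepatocytes that circulate in plasma, and brain cells are not known as a main source of any of them.

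Which copy a probe reads can be judged from its letters, and 4 probes are shown first because they share a stretch near the 3′ end of the antitrypsin copies. Each line gives 30 bases, 5′ to 3′, with the 29 bases common to all 4 in capitals, and the whole 60-base probes lie on the minus strand of chromosome 12 in build mm9, at chr12:105091819-105091878 (Serpina1a), chr12:105133165-105133224 (Serpina1c), chr12:105185172-105185231 (Serpina1e) and chr12:105056009-105056068 (a probe without a gene name).
Serpina1a 3′ probe: GTCATCCTTCCTTCTGAATTGGGTTCCTTc
Serpina1c probe: GTCATCCTTCCTTCTGAATTGGGTTCCTTc
Serpina1e 3′ probe: GTCATCCTTCCTTCTGAATTGGGTTCCTTt
Probe without a gene name: GTCATCCTTCCTTCTGAATTGGGTTCCTTc
The Serpina1a 3′ probe and the Serpina1c probe share an unbroken run of 47 bases, and each shares 29 with the Serpina1e 3′ probe. The accessions that the files list for the Serpina1c probe belong to Serpina1a, Serpina1b and Serpina1c alike. These probes therefore cannot be read as measures of single copies.

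The Serpina1a and Serpina1e genes each have a further probe upstream. These 2 probes are printed whole, with the longest run that they share, 17 bases, in capitals. They lie at chr12:105091979-105092038 and chr12:105185290-105185349 in mm9, on the minus strand.
Serpina1a upstream probe: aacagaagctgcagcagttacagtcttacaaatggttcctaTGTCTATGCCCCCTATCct
Serpina1e upstream probe: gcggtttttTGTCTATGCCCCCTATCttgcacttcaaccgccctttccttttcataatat
Lined up on that run, the 2 probes overlap by 28 bases, of which 21 are identical.

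Serpina1d has 2 probes, of which the 1st alone was well above background on any array. The first lies at chr12:105002930-105002989 and lists accessions of both Serpina1b and Serpina1d, and the second spans chr12:105004164-105005668, far more genome than its own length.
Serpina1d 1st probe: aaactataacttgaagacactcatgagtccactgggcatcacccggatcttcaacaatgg
Serpina1d 2nd probe: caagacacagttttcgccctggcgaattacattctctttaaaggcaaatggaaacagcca
Of the other members, the albumin probe (chr5:90901598-90901657, plus strand) and the upstream Apoa2 probe (chr1:173156320-173156379, plus strand) are printed since they had large bounds in the olfactory bulb.
Alb probe: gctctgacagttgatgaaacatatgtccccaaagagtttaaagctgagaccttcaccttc
Apoa2 upstream probe: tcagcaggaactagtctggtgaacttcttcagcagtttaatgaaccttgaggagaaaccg
The remaining probes lie at chr4:62804386-62804711 (Ambp), chr16:22899415-22899474 (Ahsg), chr9:46037921-46037980 (Apoa1) and chr1:173156445-173156504 (a second Apoa2 probe at the end of the gene). In RefSeq's GRCm38.p6 annotation the Apoa2 gene overlaps Tomm40l and the Ahsg gene overlaps Gm30505, whereas the antitrypsin copies, Alb, Ambp and Apoa1 overlap no other gene. No annotation of the mm9 build was used here, so probes were not assigned to exons or untranslated regions.

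The 6 arrays lay on 1 slide and each held 59305 non-control spots, of which 34134 to 39057 were well above background by the scanner software and 0 were saturated. A level is given below as a percentage of the 75th percentile of the array's signals, which was 452.0 to 709.6 intensity units, and the lowest probe well above background stood at 2.47% to 4.56% of it. Differences are log2 values, PAMAM minus saline, so that -1 is a halving. Their error is taken from 399 probes spotted 10 times on each array and is given as the SD that spot noise alone would put on a difference at that brightness. It leaves out labelling, hybridisation and animals. Markers of the olfactory bulb and of the hippocampus were highest in their own region for 5 of 5 genes in both treatments, and cortical markers for 4 of 5 in the saline arrays and 3 of 5 in the PAMAM arrays.

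The brightest antitrypsin probes showed the same picture. On the Serpina1c probe the signal in the olfactory bulb was 617 ± 62.1 intensity units (scanner error) with saline and 255 ± 25.9 with PAMAM. Scaled to the array, the level was 90.9% with saline and 35.9% with PAMAM, a difference of -1.34 with a spot-noise SD of 0.12. Hippocampal levels on the same probe were 52.8% and 38.0% (-0.47, SD 0.12), and cortical levels 32.1% and 49.4% (0.62, SD 0.14). The saline array of the olfactory bulb thus stood above all others, and the saline array of the cortex was the lowest.

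The Serpina1a 3′ probe, which shares most of its letters with the Serpina1c probe, read 88.6% with saline and 35.1% with PAMAM in the olfactory bulb. Its hippocampal levels were 54.1% and 34.8%, and its cortical levels 33.8% and 50.3%. Its differences were -1.34, -0.64 and 0.57, each with a spot-noise SD of 0.12. The Serpina1e 3′ probe read 69.4% and 28.8%, then 43.5% and 30.04%, then 24.0% and 36.5% in the same order of regions and treatments. Its differences were -1.27 (SD 0.12), -0.53 (SD 0.14) and 0.61 (SD 0.16). On all 3 probes PAMAM was lower in the olfactory bulb and the hippocampus and higher in the cortex, each time by more than 3 SD of the spot noise. Since the probes share 29 or more bases, they are not 3 independent measures.

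The upstream probes of Serpina1a and Serpina1e differed from each other. The Serpina1a upstream probe read 10.9% with saline and 4.21% with PAMAM in the olfactory bulb, a difference of -1.37 with a larger spot-noise SD of 0.36, and of -0.64 with normexp background correction. Hippocampal levels were 6.52% and 6.11% (-0.10, but 0.13 with normexp background correction) and cortical levels 5.56% and 7.14% (0.36, SD 0.36), both differences within 1 SD of the noise. The Serpina1e upstream probe read 20.2% and 14.2% in the olfactory bulb (-0.51, SD 0.18). It was at 20.1% and 15.9% for the hippocampus (-0.34, SD 0.18) and at 15.7% and 15.5% for the cortex (-0.02, SD 0.18). For Serpina1a the difference in the olfactory bulb was thus alike on the 3′ and the upstream probe in the main processing, but not with normexp (-1.16 and -0.64). Elsewhere the upstream probe's noise was at least as wide as its difference. For Serpina1e the upstream probe showed a smaller difference than the 3′ probe in each region, and its sign in the cortex turned with the scaling (-0.02 to 0.09). Its 4 levels outside the olfactory bulb ran from 15.5% to 20.1%.

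Serpina1d was dim throughout. Its 1st probe read 8.95% with saline and 5.88% with PAMAM in the olfactory bulb, a difference of -0.61 that is under 2 SD of the spot noise (SD 0.36). Hippocampal levels were 4.46% and 3.70%, well above background with saline only, a difference within the spot noise that was 0.14 with normexp. Cortical signal was well above background with PAMAM only (7.75%), which makes PAMAM at least 1.70-fold higher (0.39 on the log2 scale with normexp). The 2nd probe was not well above background on any of the 6 arrays, with levels of 0.973% to 2.72%. Serpina1b can be judged only through the probes that list its accessions beside other copies.

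**Figure D1:**
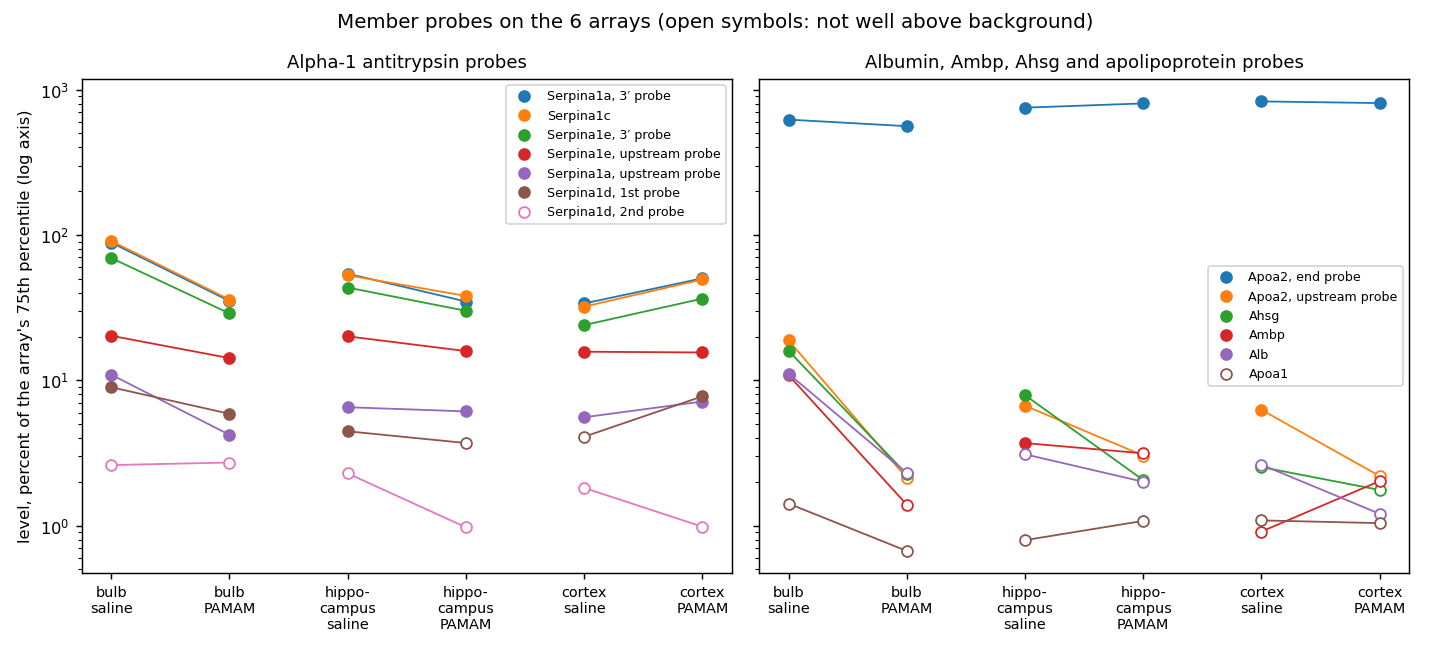
Level of every member probe on the 6 arrays, as percent of the array's 75th percentile on a log axis, with lines joining saline to PAMAM within a region and open symbols for values not well above background. The 3 brightest antitrypsin probes start at 69.4% to 90.9% in the saline olfactory bulb and stand at 28.8% to 35.9% with PAMAM, while the Apoa2 end probe stays between 560.4% and 829.6%.

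Albumin, the most abundant plasma protein, was well above background on a single array. Its level was 11.1% in the saline olfactory bulb and 2.29% with PAMAM there, which makes it at least 4.48-fold lower with PAMAM. The hippocampus (3.095% and 2.003%) and the cortex (2.63% and 1.21%) were not well above background with either treatment, so no fold is given. Alb was thus measured in the saline olfactory bulb only, and with normexp background correction its difference there was -0.84.

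Ahsg, a liver glycoprotein that binds calcium phosphate, read 16.0% with saline and 2.25% with PAMAM in the olfactory bulb, at least 6.45-fold lower with PAMAM. Its hippocampal levels were 7.90% and 2.06%, at least 1.86-fold lower, and its cortical levels 2.53% and 1.76%, neither well above background. Ambp read 10.8% and 1.39% in the olfactory bulb, at least 4.39-fold lower. Its hippocampal levels were 3.69% and 3.14%, where only saline was well above background and the bound gives no fold. In the cortex Ambp was at 0.910% and 2.02%, again with neither array well above background. With normexp the olfactory bulb differences were smaller than these bounds, at -1.07 for Ahsg and -1.06 for Ambp, and the hippocampal difference of Ahsg was -0.35. Both genes were highest on the saline array of the olfactory bulb and next on that of the hippocampus.

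Apoa1, the main apolipoprotein of high-density lipoprotein, was not well above background on any array, with levels of 0.669% to 1.42% as the mean of 9 or 10 spots. On the upstream probe, Apoa2 read 18.8% with saline and 2.12% with PAMAM in the olfactory bulb, at least 7.61-fold lower. Elsewhere it was also well above background with saline only, at 6.68% against 3.03% for the hippocampus (at least 1.58-fold lower) and 6.26% against 2.19% for the cortex (at least 1.45-fold lower). With normexp its differences were -1.42, -0.24 and -0.25 in the same order of regions. The end probe of Apoa2, which lies further along the same strand of the gene, read 621.8% and 560.4% in the olfactory bulb (-0.15). Hippocampal levels were 751.5% and 803.6% (0.10) and cortical levels 829.6% and 808.1% (-0.04), each difference with a spot-noise SD of 0.07. In the olfactory bulb the 2 Apoa2 probes thus differed by more than the spot noise, and the gene overlaps Tomm40l, whose part in either signal was not tested.

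Counted over probes, 7 of the 13 were measured in the olfactory bulb, that is, well above background on both arrays. All 7 were lower with PAMAM and 4 of them at least 2-fold lower, beside 80 of all 33578 measured probes (0.238%) at least 2-fold lower and 51.1% lower in any degree. The 4 probes measured with saline only, Alb, Ambp, Ahsg and the upstream Apoa2 probe, were all at least 2-fold lower by their bounds, beside 101 of 290 such probes (34.8%), and 0.856% of all probes well above background with saline were not so with PAMAM. The median over the 7 probes was -1.27, against -0.004 over all measured probes, and it was -0.64 with normexp background correction. These counts restate the choice of the genes.

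The hippocampus and cortex contrasts use other arrays than those by which the genes were chosen. Earlier results of these data were known at that choice. In the hippocampus, 6 probes were measured on both arrays, and 5 were lower and 1 higher with PAMAM, beside 49.3% of all measured probes lower. The number at least 2-fold lower was 0, beside 0.0601% of all measured probes, and the median was -0.41 (-0.24 with normexp) against 0.003 over all probes. A further 4 probes, the 1st Serpina1d probe, Ambp, Ahsg and the upstream Apoa2 probe, were well above background with saline only, beside 7.06% of all probes well above background there, and 0 of them reached 2-fold by a bound (1.25% of all such probes did). The direction of the Serpina1 3′ probes was the same as in the olfactory bulb and the size was smaller. These probes share sequence, so the 5 lower probes are not independent measures. The other lower ones, the upstream probes of Serpina1a (-0.10, but 0.13 with normexp) and Serpina1e (-0.34, SD 0.18), lay within 2 SD of the spot noise.

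In the cortex, 2 of the 6 measured probes were lower and 4 higher with PAMAM, beside 50.4% of all measured probes lower, and the median was 0.47 against -0.002. It was 0.30 with normexp, -0.0169 with no filter on dim probes and -0.038 with brighter probes only, which left 1 probe, the Apoa2 end probe. At least 2-fold differences were absent in either direction among these 6, beside 0.487% of all measured probes lower and 0.326% higher. That split, 148 lower and 99 higher, depended on the scaling and was 104 and 153 with median scaling. The upstream Apoa2 probe was measured with saline only (4.18% of all probes well above background with saline were not so with PAMAM) and the 1st Serpina1d probe with PAMAM only. Neither reached 2-fold by its bound, beside 20.5% of all probes measured with saline only and 11.3% of those with PAMAM only. The 4 higher probes were the Serpina1c probe, the 3′ probes of Serpina1a and Serpina1e, and the upstream Serpina1a probe, of which the last lay within 1 SD of the spot noise. The 2 lower ones, the Serpina1e upstream probe (-0.02) and the Apoa2 end probe (-0.04), were also within it, and both were above 0 with median scaling (0.09 and 0.07).

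**Figure D2:**
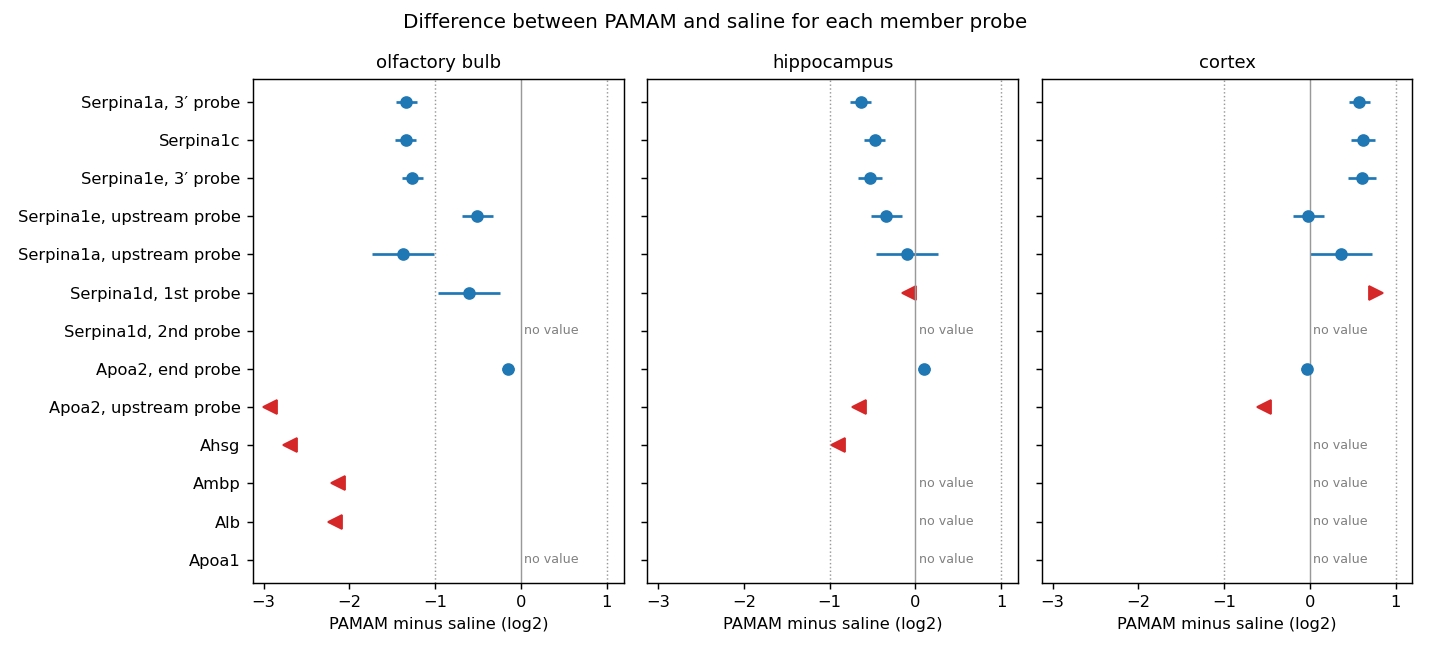
PAMAM minus saline (log2) for each member probe in the 3 regions, with points and bars for measured probes (bar, 1 SD of spot noise), red triangles for bounds and dotted lines at 2-fold. The Serpina1c probe and the Serpina1a and Serpina1e 3′ probes lie at -1.34 to -1.27 in the olfactory bulb panel, at -0.64 to -0.47 for the hippocampus and at 0.57 to 0.62 for the cortex.

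The 6 arrays were then put in order for each probe. Of the 11 member probes well above background on at least 1 array, 10 were highest on the saline array of the olfactory bulb, beside 18.4% of 38044 probes in all, and the exception was the Apoa2 end probe, highest in the saline cortex. Among the saline arrays, 9 of 10 measured member probes were higher in the olfactory bulb than in the hippocampus (48.1% of all probes were), with a median difference of 0.76. Against the cortex, 6 of 7 were higher (43.3% of all probes), with a median of 1.39. These comparisons use the saline olfactory bulb array that also chose the genes, so they are not independent of that choice.

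Earlier results of these data were known when the genes were chosen, but the rule did not use the saline hippocampus and cortex arrays. There, 6 of 7 measured member probes were higher in the hippocampus, beside 44.5% of all probes, with a median of 0.35. The Serpina1e 3′ probe differed by 0.86 (SD 0.16), the Serpina1c probe by 0.72 (SD 0.12) and the Serpina1a 3′ probe by 0.68 (SD 0.12), and these probes share sequence. The Serpina1e upstream probe differed by 0.35 (SD 0.18). The upstream probes of Serpina1a (0.23, SD 0.36) and Apoa2 (0.09, SD 0.29) lay within the spot noise. Ahsg, well above background only in the hippocampus, was at least 1.73-fold higher there. Ambp and the 1st Serpina1d probe were also well above background only in the hippocampus, and their bounds give no fold. Of the 7 measured probes, the exception was the Apoa2 end probe, at -0.14 (SD 0.07).

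With PAMAM the order of the regions was another one, and the PAMAM olfactory bulb array also took part in choosing the genes, so comparisons with it are not independent of that choice. The olfactory bulb was below the cortex for 7 of 7 measured probes (45.5% of all probes were higher in the olfactory bulb), with a median difference of -0.46, and above the hippocampus for 1 of 6 (44.6% of all probes), with a median of -0.12. The Serpina1c probe read 35.9% (olfactory bulb), 38.0% (hippocampus) and 49.4% (cortex), of which the first 2 lay within 1 SD of the spot noise of each other. The hippocampus was above the cortex for 1 of 6 probes (47.3% of all probes), with a median of -0.25. On the 3′ probes of Serpina1a and Serpina1e and on the Serpina1c probe alike, the saline olfactory bulb came first over all 6 arrays, the saline hippocampus and the PAMAM cortex next, and the saline cortex last. The step from the first to the second array was 0.67 to 0.78, over 5 SD of the spot noise. The saline hippocampus and the PAMAM cortex differed by 0.10 on the Serpina1c probe and 0.11 on the Serpina1a 3′ probe, about the size of the spot noise, and the PAMAM arrays of the olfactory bulb and hippocampus lay within 1 SD of each other on all 3 probes. The PAMAM hippocampus and the saline cortex, lowest of all on the Serpina1a 3′ probe, did not differ beyond the noise there (0.04, SD 0.14). On the Serpina1e upstream probe, by contrast, the saline olfactory bulb and the saline hippocampus were at the same level (0.01 apart, SD 0.18).

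The promoters of the antitrypsin copies share a run of sequence, shown to describe the copies. RefSeq's 300-base promoter windows (GRCm38.p6, 250 bases before to 50 after each start) were used. A run grown outward from a GTTAAT motif for as long as all 5 copies shared it has 59 bases. Longer runs elsewhere in the windows were not searched for. The 59-base run occurs in the windows of those 5 genes only, out of 32851. It lies on the minus strand at chr12:103863621-103863679 for Serpina1a, chr12:103738196-103738254 for Serpina1b, chr12:103904958-103905016 for Serpina1c, chr12:103773630-103773688 for Serpina1d and chr12:103956956-103957014 for Serpina1e. The capitals mark GTTAAT, a motif that recurs in promoters of liver genes.
Serpina1 shared run: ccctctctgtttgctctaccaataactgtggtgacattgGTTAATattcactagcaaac
Alb (chr5:90460818-90460869, plus strand): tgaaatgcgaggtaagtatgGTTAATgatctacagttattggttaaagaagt
Searched on both strands, GTTAAT is in 2332 of the 32851 windows (7.10%) and in those of 6 of the 10 genes, the 5 antitrypsin copies and Alb. A match to these letters is a description of the window and not a binding site.

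Other plasma proteins of the liver were listed beside the members. By the brightest probe of each gene, 29 of 51 such genes were measured in the olfactory bulb, and 22 were lower with PAMAM (52.7% of all genes were), with a median of -0.13 against -0.01 over all 23290 measured genes. Of these, 2 were at least 2-fold lower, beside 0.206% of all genes: F2, which encodes prothrombin (8.39% and 3.103%, -1.43), and Hp, the haemoglobin scavenger haptoglobin (10.8% and 5.03%, -1.10). Genes next in size were Apoh (-0.92), Apom (-0.80) and Pzp (-0.75). By bounds, Kng1, the kininogen precursor, was at least 3.92-fold lower, the fibrinogen gamma chain gene Fgg at least 2.48-fold and the murinoglobulin gene Mug1 at least 2.32-fold. The same list had 7 lower and 14 higher genes in the hippocampus (48.8% of all genes lower), with a median of 0.10 and 0 at least 2-fold lower beside 0.0672% of all genes. A further 9 genes were well above background there with saline only and 1 with PAMAM only. Of all probes well above background with saline there, 7.06% were not so with PAMAM. None of these genes reached 2-fold by a bound, beside 1.25% of all probes measured with saline only. Its cortical values were 8 lower and 10 higher (46.5% of all genes lower), with a median of 0.09 and 0 at least 2-fold lower beside 0.417% of all genes. There 1 further gene was well above background with saline only and 3 with PAMAM only. In the cortex 1 gene was at least 2-fold higher, beside 0.326% of all measured probes: Ttr (317% and 2076%, 2.71), which is also on the choroid plexus list below.

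Among the other clade A serpins, the relatives of antitrypsin, 5 of 9 measured genes were lower in the olfactory bulb (52.7% of all genes were). Their median was -0.07, and 0 were at least 2-fold lower, beside 0.206% of all genes. Serpina3b differed by -0.38, Serpina3f by -0.34 and Serpina1f by 0.35. Serpina3k, a serpin of mouse liver, was measured with saline only (7.64% against 1.44%) and was at least 3.09-fold lower. The measured genes of the clade thus lay on both sides of 0.

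Enzyme genes of the hepatocyte, some of which brain cells also express, lay on both sides of 0. Of 30 such genes, 14 were measured in the olfactory bulb, 7 lower and 7 higher with PAMAM, with a median of 0.007 and a summed level of 845% with saline and 831% with PAMAM. Most of that sum came from Ass1 (312% with saline), Tat (128%), Bhmt (88.5%) and Fah (86.0%). Fabp1, the fatty acid binding protein of liver and gut, was at least 2-fold lower (17.1% and 3.55%, -2.27), beside 0.206% of all genes. Cyp2e1 differed by -0.83 (11.5% and 6.44%) and G6pc by 0.44 (6.65% and 9.01%). Uox was well above background with saline only (4.69% and 1.63%) and at least 1.90-fold lower. A further 2, Cps1 and Cyp4a14, were well above background with PAMAM only, and their bounds give no fold. The other 13 were not well above background on either array, among them Otc at 0.782% and 0.566%, Cyp7a1 at 0.781% and 0.563%, Tdo2 at 0.697% and 0.505% and Arg1 at 0.931% and 0.847%. For the hippocampus 10 of 14 measured enzyme genes were lower (48.8% of all genes), with summed levels of 806% and 773%, of which Ass1 made 313% and 262%. There Bhmt was at least 2-fold higher (7.22% and 15.7%, 1.12, and 0.53 on its other measured probe), beside 193 of all 31634 measured probes. Cyp4a14, well above background there with PAMAM only, was at least 10.5-fold higher by its bound. For the cortex 8 of 13 measured enzyme genes were lower (46.5% of all genes), with summed levels of 824% and 793%. The part of any of these genes in the members' values was not tested.

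**Figure D3:**
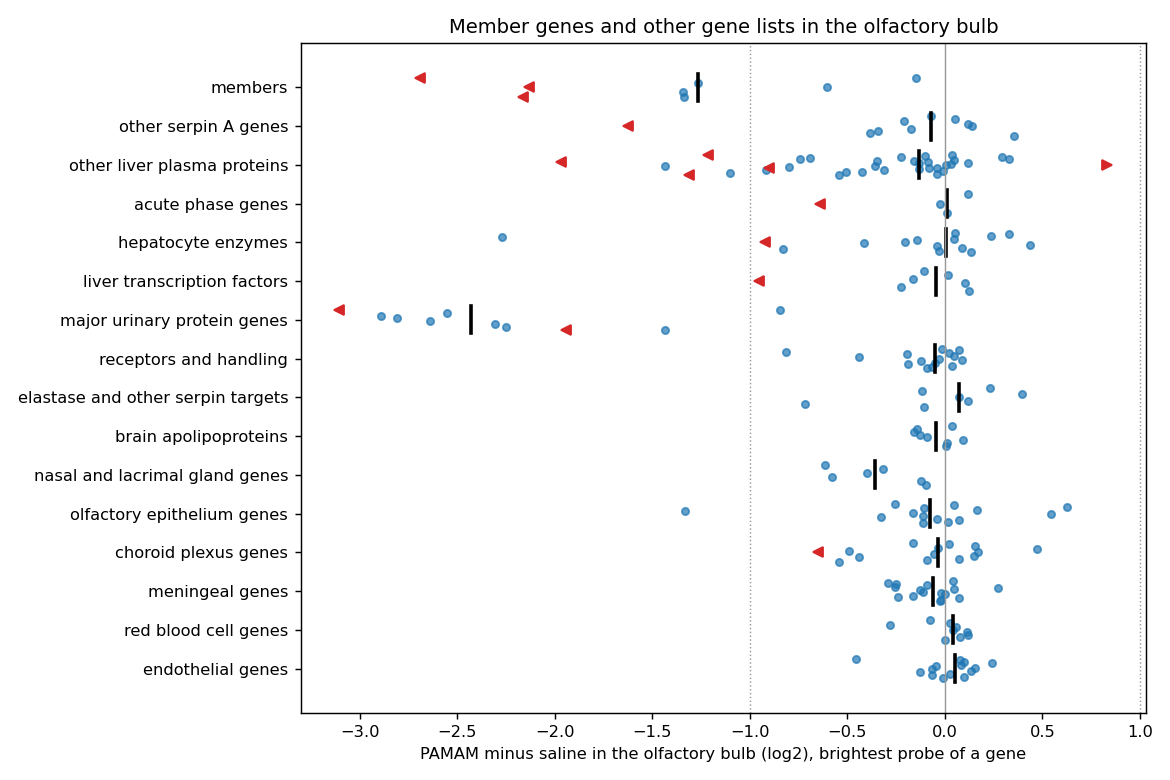
Olfactory bulb values, PAMAM minus saline (log2), of the member genes and 15 other gene lists, with 1 point per measured gene (brightest probe), red triangles for bounds, black bars for medians and dotted lines at 2-fold. The members lie around their median of -1.27, the major urinary protein genes around -2.43, and most other lists around 0.

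Major urinary protein genes, a liver and gland family of pheromone carriers, were lower in all 3 regions. All 8 measured genes were lower in the olfactory bulb (52.7% of all genes were) and 7 of them at least 2-fold (0.206% of all genes). Their median was -2.43 and their summed level 669% with saline and 119% with PAMAM. Hippocampal values were lower for 7 of 7 (48.8% of all genes were), and for 6 of them at least 2-fold lower (0.0672% of all genes). The median there was -1.35 and the summed levels 354% and 132%. Cortical values were lower for 7 of 7 too (median -0.49, 244% and 167%, beside 46.5% of all genes lower), where the antitrypsin 3′ probes were higher. Copies of this family share sequence, so their counts are not independent.

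Markers of other sources were followed beside the members. Nasal and lacrimal gland genes had 6 of 6 measured genes lower in the olfactory bulb, with a median of -0.36 and summed levels of 179% and 140.3%, whereas 3 of 3 were higher in the hippocampus (summed levels 89.3% and 93.6%) and 2 of 3 in the cortex (87.1% and 86.7%). Bpifb6 differed by -0.62 and Bpifb3 by -0.58 in the olfactory bulb. Olfactory epithelium genes had 8 of 14 lower there, with a median of -0.07, and single genes on both sides of 0: Krt18, a keratin of simple epithelia, at -1.33, Umodl1 at 0.63 and Cyp2g1 at 0.54. Red blood cell genes, with each probe counted once, were 3 lower and 6 higher in the olfactory bulb (median 0.04, summed levels 22840% and 23840%), and 8 of 9 were higher in the hippocampus (0.49, 20810% and 25720%) and 7 of 8 in the cortex (0.51, 18540% and 26910%). Their part in the members' values was not tested.

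Choroid plexus genes, which mark the tissue that makes cerebrospinal fluid, had a median of -0.03 in the olfactory bulb, with 7 of 13 lower and summed levels of 2983% and 2859%. For the hippocampus 18 of 18 were higher (median 0.71, 24040% and 38290%), and for the cortex 12 of 13 (median 0.78, 3487% and 6123%). Meningeal genes were lower for 12 of 16 in the olfactory bulb (median -0.06) and higher for 14 of 15 in the cortex (median 0.68). The antitrypsin 3′ probes were higher in the cortex and lower in the hippocampus, and the part of the choroid plexus and meninges in either was not tested.

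Probes whose levels over the 6 arrays most resembled the antitrypsin profile were sought among 6443 probes that were well above background on all arrays and varied at least 2-fold. The profile was the mean of the 5 antitrypsin probes well above background everywhere, and all correlations are over the same 6 arrays, so they are descriptions. Apart from the members, the closest was the probe without a gene name shown above (r = 0.98), with levels of 74.1% and 31.7% in the olfactory bulb. Its hippocampal levels were 44.4% and 29.3%, and its cortical levels 28.4% and 42.0%. It shares an unbroken run of 53 bases with the Serpina1c probe and 48 with the Serpina1a 3′ probe, and it was the only probe of 55674 searched outside the members' own that shared 20 or more bases with the antitrypsin probes. The next were Cyp2e1 (r = 0.88), a cytochrome of liver and olfactory mucosa, Mup17 (0.88), Mup5 (0.87), Mup18 (0.85), Mup2 (0.85) and Mup19 (0.84). Blm (0.83), 4921531P14Rik (0.81) and a transcript named only by its Ensembl number (0.81) followed, and their differences in the cortex were -0.24, -0.19 and -0.08. The r of Blm rests on 1 array, since it read 5108% in the saline olfactory bulb and 28.4% to 40.2% on the other arrays. Of all these, the unnamed probe (0.56) and Cyp2e1 (0.23) were the ones higher with PAMAM in the cortex.

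**Figure D4:**
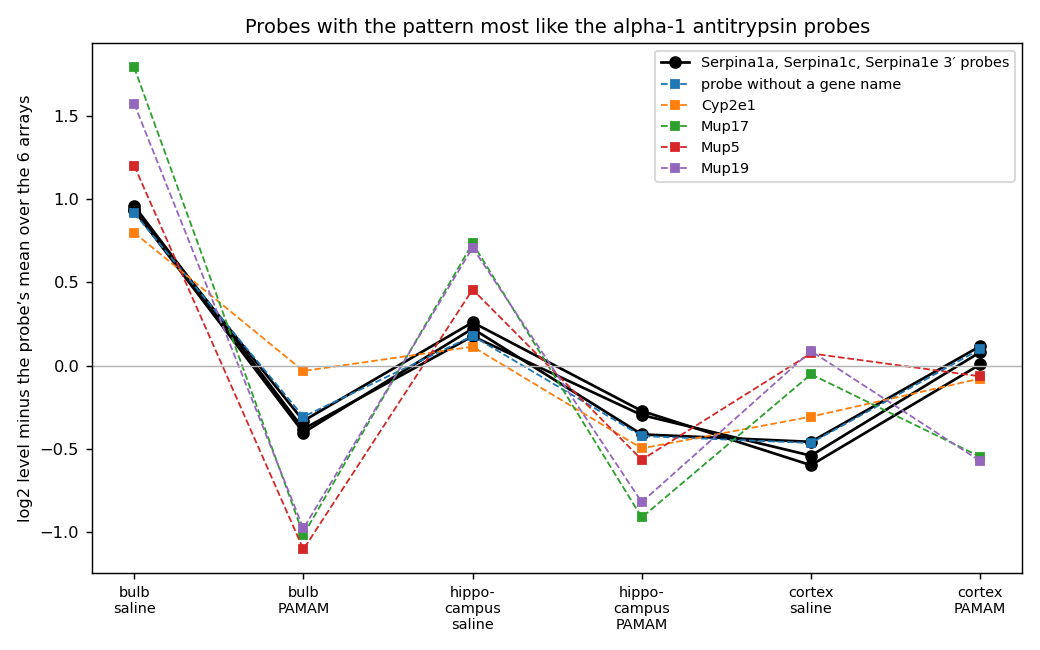
Log2 level on the 6 arrays minus the probe's mean over them, for the 3 antitrypsin 3′ probes (black) and for 5 of the probes with the most similar profile. The unnamed probe follows the antitrypsin probes on every array (r = 0.98), while Mup17, Mup5 and Mup19 are lower with PAMAM in the cortex as well.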

How the data were processed

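Processed and mean spot intensities were made by the authors with Agilent Feature Extraction 10.7.3.1, per the file headers, and deposited on a linear scale. A second deposited file, a log2 table by the authors, was compared with these: set against the scanner values, its columns equalled the 75th-percentile-scaled log2 levels minus each probe's median over the arrays (r at least 0.9999 over 29549 probes, largest residual 0.0233), with column medians of -0.0914, -0.0627, -0.0462, 0.0255, 0.0436 and 0.0349 for the olfactory bulb, hippocampus and cortex (saline, then PAMAM). How it was filtered is not given in the sources used here.

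Here, log2 of the processed signal was taken, each array's 75th percentile subtracted, outlier spots (84 to 132 an array) dropped and repeated spots averaged. A probe was measured where it was well above background on both arrays. Where 1 array was not, the bound sets the bright level against the dim probe's level or, if higher, that array's lowest level well above background, and leaves out spot noise and the choice of background correction. Symbols came from the files, updated through RefSeq accessions for 27235 probes. Lists use each gene's brightest probe and count a shared probe once, and some of their genes are not reported here by name. Named from each list were up to 5 genes with the largest measured difference in a region and those past 2-fold by a bound, with the 10 symbols most like the antitrypsin profile. The hepatocyte, nasal and other genes given as not well above background were chosen after their values were seen, as were Uox, Cps1 and Cyp4a14 in the olfactory bulb. The members and lists were chosen with earlier results of these data known. Changes put into bright probes of simulated arrays were recovered by the same scaling, averaging and 2-fold count. Changes in dim probes and the bounds were not simulated. Python 3.11.15 and limma 3.58.1 were used. Background correction by normexp (offset of 50 intensity units), quantile and median scaling, outlier spots kept, the deposited table and filters on dim probes were tried as alternatives.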

Additional observations from a re-analysis of the deposited data

Results flagged for a closer look

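PAMAM and saline differed in opposite directions between regions on the antitrypsin 3′ probes. For Serpina1a the difference in the olfactory bulb minus that in the cortex was -1.91, and the hippocampus minus the cortex gave -1.21. For Serpina1c the same 2 values were -1.96 and -1.10, and for Serpina1e they were -1.87 and -1.14. What drew attention was that each region's difference exceeded 3 SD of the spot noise and the signs were opposite. With 1 array per group the difference between regions was not tested, and the 3 probes share sequence. The genes were chosen by their lower values in the olfactory bulb, so its size there and the contrasts with it are not independent of that choice.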

How the results depend on the processing

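Among 195 single-probe values recomputed under the alternatives, 165 kept their size within the spot noise and 30 moved. Of 95 such values of probes measured on both arrays, 6 changed sign: the Serpina1a upstream probe in hippocampus (0.13 with normexp), the Serpina1e upstream probe in cortex (0.0088 to 0.09 under normexp, quantile and median scaling and the deposited table) and the Apoa2 end probe in cortex (0.07 with median scaling). Most of the values that moved did so with normexp, and the rest with quantile or median scaling. The deposited table has the same scaling as the main values, and keeping outlier spots altered Apoa1 only. Those alternatives could hardly move a value, so the total of 165 says little about stability. Normexp background correction gave medians of -0.64 (olfactory bulb), -0.24 (hippocampus) and 0.30 (cortex). It gave 0.77 for the median by which 7 member probes on the saline olfactory bulb array exceeded the mean of the other saline arrays, where the main value was 1.05. With no filter on dim probes, 9 member probes were at least 2-fold lower in the olfactory bulb, 3 in hippocampus and 2 in cortex, and the cortex median was -0.0169. With brighter probes only, 2 were at least 2-fold lower in the olfactory bulb, and the 1 probe left gave 0.0967 (hippocampus) and -0.038 (cortex), which is the Apoa2 end probe. Normexp was run with an offset of 50 intensity units added to every signal, which by itself makes the log2 differences of dim probes smaller. How much of the normexp shifts came from the offset was not tested, nor was the cause of the other shifts. Over all measured probes of the cortex, 99 were at least 2-fold higher and 148 lower in the main scaling, 135 and 105 with quantile normalization, 153 and 104 with median scaling (which shifted all probes by 0.11) and 29 and 24 with normexp. Dim probes also limit the members: 6 to 7 of 13 were measured on both arrays of a region. No paired analysis over the regions was run. Nothing ties the 3 regions to the same mice, and the antitrypsin 3′ probes differed in opposite directions between regions.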

Other observations

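Receptors and handling proteins for plasma proteins and lipoproteins were measured for 15 of 17 genes in the olfactory bulb. With PAMAM 10 of them were lower (52.7% of all genes were), with a median of -0.05. The largest difference there was that of the insulin receptor gene Insr (90.2% and 51.3%, -0.81) on its brightest probe, while its other 2 measured probes were at -0.06 and 0.09. Asgr1, a subunit of the receptor that clears desialylated plasma proteins, was at -0.19 in the olfactory bulb (-0.56 on its other measured probe), with 0.47 for hippocampus and 0.74 for cortex.

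Proteases that antitrypsin and its relatives inhibit were listed with Mpo, which encodes a peroxidase and not a protease and is in the counts of each region. Of the measured genes on this list, 3 of 7 were lower with PAMAM in the olfactory bulb (52.7% of all genes were). In the hippocampus 5 of 5 were higher (48.8% of all genes were lower). In the cortex 3 of 4 were lower (median -0.36, beside 46.5% of all genes lower), with Mpo at -0.56, Ctrb1 at -0.39 and Cela1 at -0.34. Elane, neutrophil elastase itself, differed by 0.20 in the hippocampus and 0.09 in the cortex, and Prtn3, proteinase 3, by -0.72 in the olfactory bulb. Acute phase genes, which the liver raises in inflammation, were measured for 3 of 14 genes, and Saa1 differed by 0.009 in the olfactory bulb, with -0.01 for hippocampus and 0.08 for cortex. Socs3 differed by 0.12, 0.45 and 0.76 in the same order of regions, and Lcn2 by 0.34 in the cortex, where all 3 were higher (median 0.34).

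Single genes of the liver, serpin and protease lists passed 2-fold by bounds in the regions where no member did. Cyp4a14 was at least 10.5-fold and Serpina3m at least 2.82-fold higher with PAMAM in the hippocampus, Nr0b2 at least 2.94-fold higher in the cortex, and the trypsin gene Prss1 at least 6.19-fold lower in the cortex. Each rests on 1 array being well above background and has no replicate.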
